A study of Danio rerio with 12 samples.

Results

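DNA methylation was compared between 4 pools of zebrafish embryos (Danio rerio) exposed to 0.1 mM sodium arsenite for 72 hours and 4 pools of unexposed control embryos, all collected at 72 hours post fertilisation. These 8 libraries were chosen by their titles, out of 12 in the series; the other 4 came from pools kept in 1 mM arsenite, share these controls and are quoted only beside a named site or stretch. The embryos of all groups descended from one commercially imported wild-type stock bred in the laboratory, and the labels give 20 embryos to a pool. Each library is therefore an average over the cell types and genotypes of whole embryos, so fewer cells of one type and less methylation per cell cannot be told apart. The protocol in the labels speaks of triplicate experimental units while the series holds 4 pools a group, and no label says how the pools relate to those units or whether they came from separate spawns. SDs and p-values therefore take in no spread beyond that between these pools. The question was whether arsenite at the lower dose alters methylation at single sites, over stretches of neighbouring sites, or over the genome as a whole.

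Methylation of cytosine at CpG is laid down and copied by DNA methyltransferases, which take the methyl group from S-adenosylmethionine. In many animals inorganic arsenic is itself methylated for excretion by an enzyme that uses the same donor. In zebrafish most of the genome outside CpG-rich promoters is methylated, and the embryo does not erase that pattern globally after fertilisation as mammals do. The assay, digital restriction enzyme analysis of methylation, cuts CCCGGG first with SmaI, which cannot cut methylated sites, and then with XmaI, which can; read ends that begin with GGG count as unmethylated and those that begin with CCGGG as methylated. The level of a site is the percentage of its reads that are methylated. No sequence or gene annotation of the genome build of the files, danRer7, was used here, so sites are named by chromosome and position alone.

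Of 64466 listed sites on 25 chromosomes, 2332 (3.62%) reached 20 reads in all 8 libraries, and 91.3 to 95.2% of each library's reads fell on them. The 0.1 mM libraries held 1485862 to 1822127 reads and the control libraries 1425613 to 1666841. The median analysed site had 297.0 to 411.5 reads in the 0.1 mM libraries and 323.0 to 359.0 in the controls. At the coverage minimum, 130 sites had 20 to 24 reads in their shallowest library, and 196 sites with 15 to 19 were left out. Among the spiked standards the least methylated one read 0.285 to 0.496% in the 0.1 mM libraries and 0.215 to 0.920% in the controls. The most methylated one read 99.2 to 99.4% at 0.1 mM and 99.3 to 99.6% in the controls. Most levels at the unmethylated sites named below lay within or under the range of the least methylated standard. They were not tested against it. Reads carried no molecular identifiers, so limits set by counts cover counting error only.

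Exposure to 0.1 mM arsenite left no detectable difference in mean methylation. Over all 2332 sites the 0.1 mM libraries stood at 80.2%, 80.0%, 80.6% and 80.3%, and the controls at 80.1%, 80.7%, 80.2% and 80.1%. The groups overlapped, with a difference of -0.0153 points (95% interval -0.744 to 0.519, exact two-sided permutation p = 0.886). The smallest p that 4 against 4 libraries allow is 0.0286, and every p adjusted over the 5 means compared was 0.886. With that smallest p, a change confined to a single class could not have come under 0.05 after adjustment.

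The same held in each class of sites set by the mean of the 8 libraries. The 235 sites under 10% averaged 0.540% ± 0.0620 at 0.1 mM and 0.523% ± 0.0218 in controls (SD, n = 4 each; exact permutation p = 0.6). Exposed libraries 1 and 2, at 0.591% and 0.596%, lay above every control, and the other two, at 0.479% and 0.495%, did not. The 241 sites at 10 to 70% averaged 47.4% ± 0.927 at 0.1 mM and 47.6% ± 1.31 in controls, with an interval of the difference of -2.62 to 2.57 points. At 70 to 90% the 316 sites averaged 82.8% ± 0.637 at 0.1 mM and 83.0% ± 1.02 in controls, with an interval of -2.52 to 1.16 points. The 1540 sites at 90% or more averaged 97.1% ± 0.132 at 0.1 mM and 97.0% ± 0.120 in controls, with an interval of -0.210 to 0.370 points. Control library 2 was the highest control in every class but the lowest, and leaving it out turned the difference over all sites to 0.138 points (exact permutation p = 0.543).

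**Figure D1:**
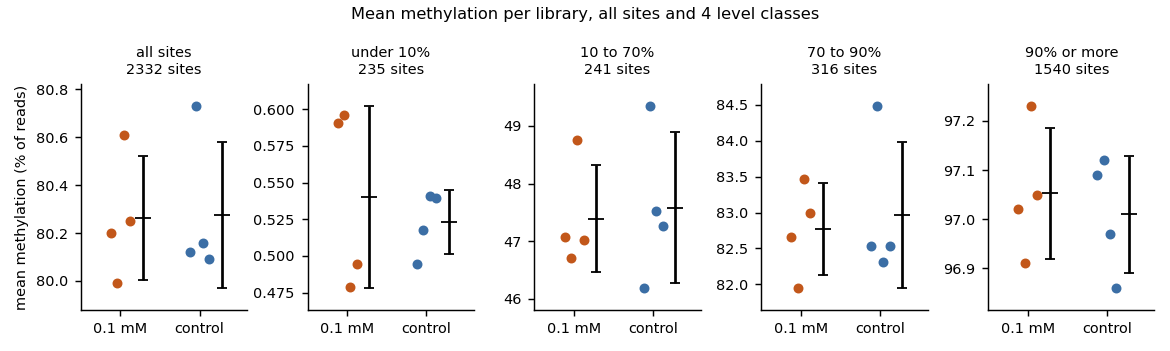
Mean methylation per library in percent of reads (vertical axes, each with its own range) for all sites and for 4 level classes. Points are libraries, with 0.1 mM on the left and control on the right of each panel, and bars are mean and SD of 4 libraries; the groups overlap in all 5 panels.

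At 95% of sites the group means lay within 4.22 points of each other. The median absolute difference between group means was 0.501 points over all sites, 1.84 points at 10 to 70% and 0.418 points at 90% or more. The SD between single libraries, which is wider than the error of a mean of 4, had a median of 3.52 points at 0.1 mM and 4.07 points in controls at sites of 10 to 70%, and of 0.766 points at 0.1 mM and 0.848 points in controls at sites of 90% or more. The mean was higher at 0.1 mM at 1115 sites and lower at 1137, while 80 sites were read in 1 state alone and were not tested, 22 of them unmethylated and 58 methylated. Of the 2252 sites tested, 110 (4.88%) had an unadjusted edgeR p under 0.05, 57 with higher and 53 with lower odds at 0.1 mM. By class this share was 12.7% of 213 sites under 10%, 2.49% of 241 sites at 10 to 70%, 2.85% of 316 at 70 to 90% and 4.59% of 1482 at 90% or more. The groups did not overlap at 50 sites (2.22%), of which 30 (1.33%) were higher and 20 (0.888%) lower at 0.1 mM. The share without overlap was 1.41% under 10%, 2.9% at 10 to 70%, 3.48% at 70 to 90% and 1.96% at 90% or more. The class with the largest share of small p thus had the smallest share without overlap.

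**Figure D2:**
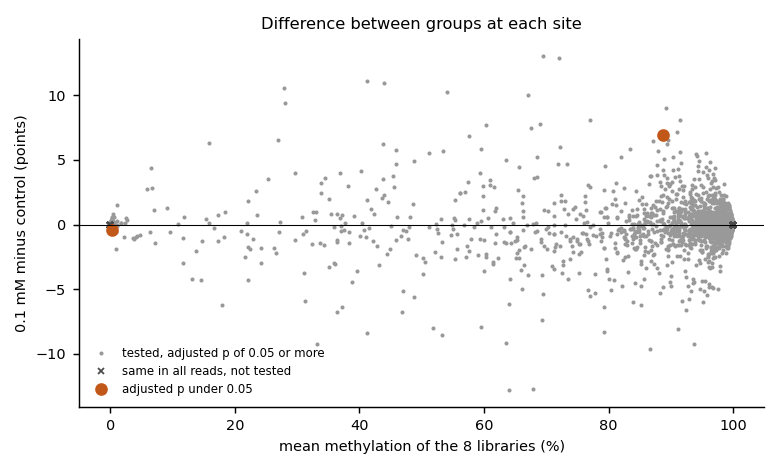
Difference between the group means of 0.1 mM and control in points (vertical axis) against the mean methylation of the 8 libraries in percent (horizontal axis) for 2332 sites. Most sites lie near 0 and differences are widest at intermediate levels; the 2 large points are the sites with an adjusted p under 0.05, at differences of 6.93 and -0.442 points.

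At 0.1 mM 2 sites (0.0888% of those tested) passed the threshold of 0.05 with edgeR's quasi-likelihood test and Benjamini-Hochberg adjustment, 1 higher and 1 lower. The site that rose, called H1 here, is at chromosome 1 position 1292889. It was methylated at 94.0%, 94.3%, 91.0% and 89.7% in the 0.1 mM pools and at 81.9%, 85.1%, 88.2% and 86.2% in the controls. All 4 exposed pools lay above all 4 controls, by 6.93 points on average (log2 odds ratio 1.05, edgeR adjusted p = 0.00259). Depth was 1408 to 1728 reads per library. The call was kept when each of the 8 libraries was left out in turn (edgeR adjusted p = 0.000117 to 0.0486). It was also kept with a minimum of 10 reads (edgeR adjusted p = 1.74e-05) and of 50 reads (edgeR adjusted p = 0.0219). The reads at H1 were the same in these fits, and only the set of other sites differed. The call was lost when the 1 mM libraries joined the fit (edgeR adjusted p = 0.224) and with limma on log2 odds (adjusted p = 0.750). In the 1 mM pools the site was at 92.7%, 94.7%, 93.8% and 82.2%, so that 3 of them lay above the controls and 1 among them.

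The site that fell, L1, is at chromosome 6 position 4440116 and is nearly unmethylated. It had 1 of 3359, 2 of 2788, 4 of 3394 and 2 of 3144 reads methylated in the 0.1 mM pools, and 3 of 3140, 21 of 2425, 6 of 3042 and 26 of 2912 in the controls. The difference of -0.442 points (0.0707% ± 0.0363 at 0.1 mM and 0.513% ± 0.425 in controls; SD, n = 4; log2 odds ratio -2.71, edgeR adjusted p = 0.0445) came from control libraries 2 and 4, at 0.866% and 0.893%. Control library 1, at 0.0955%, lay within the range of the exposed pools, at 0.0298 to 0.118%. Leaving out control library 2 gave a log2 odds ratio of -2.37 (edgeR adjusted p = 0.591), and leaving out control library 4 gave -2.25 (edgeR adjusted p = 0.381). The call was also lost with the 1 mM libraries in the fit (edgeR adjusted p = 0.0954), with a minimum of 50 reads (0.272), with limma on log2 odds (0.982) and without any one of the 0.1 mM libraries 1, 3 and 4 (0.0517 to 0.172). The next site, 244 bp away at position 4440360, stood at 0.0957% ± 0.0482 at 0.1 mM and 0.0700% ± 0.0472 in controls. Of the 1 mM pools none exceeded 0.150% at L1. The least methylated standard read 0.920% in control library 4, above L1 there, and 0.387% in control library 2, below L1 there. In the exposed pools it read 0.285 to 0.496%, above L1 in each. Whether L1 stood above the background of the assay was not tested.

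The other sites with the smallest p did not pass, with edgeR adjusted p between 0.558 and 0.890. They are described by level and carry no call. Among the 8 sites with the smallest p on the higher side, 5 were over 90% methylated, 2 under 10%, and H1 lay between. Site H3, at chromosome 10 position 3853487, was at 97.4%, 97.3%, 97.5% and 98.2% in the 0.1 mM pools and at 94.4%, 93.5%, 96.2% and 95.3% in the controls (edgeR adjusted p = 0.558). The 1 mM pools stood between 96.2% and 97.5% there. Site H7, at chromosome 7 position 72901810, was at 98.7% ± 0.906 at 0.1 mM and 95.03% ± 2.01 in controls (SD, n = 4), with 88 to 164 reads per library. Site H8, at chromosome 2 position 16625773, was at 96.7% ± 1.76 at 0.1 mM and 92.1% ± 2.74 in controls, and 1 exposed pool, at 94.2%, lay under the highest control, at 95.6%. The differences were smaller at H5, chromosome 17 position 48523669, with 98.0% ± 0.893 at 0.1 mM and 96.1% ± 0.880 in controls, and at H6, chromosome 18 position 40110239, with 98.8% ± 0.412 at 0.1 mM and 97.6% ± 0.543 in controls.

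At the 2 unmethylated sites of that side only some of the exposed pools stood far above the rest. Site H2, at chromosome 21 position 2066571, had 25 of 2284, 0 of 1873, 12 of 1985 and 2 of 1998 reads methylated in the 0.1 mM pools, against 0 of 2048, 2 of 1782, 1 of 1925 and 2 of 2158 in the controls. Exposed libraries 1 and 3 stood above the controls there, and libraries 2 and 4 were within their range. Without exposed library 2, which had no methylated read, the site was called (edgeR adjusted p = 0.0113). Without any other single library it was not (edgeR adjusted p = 0.0504 to 0.990), and leaving out exposed library 1 gave the 0.990. Site H4, at chromosome 11 position 21819918, had 50 of 2766 reads methylated in exposed library 2, at 1.81%, with 0.0666 to 0.198% in the other exposed pools and 0.0324 to 0.138% in the controls; 3 of 4 exposed pools lay above all controls.

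On the lower side, 4 of the 8 sites were over 90% methylated, 3 under 10%, and L5 lay between. Site L5, at chromosome 8 position 43702575, was at 84.3%, 83.9%, 84.1% and 82.0% in the 0.1 mM pools and at 86.7%, 91.6%, 85.1% and 87.7% in the controls, with 840 to 1267 reads per library (edgeR adjusted p = 0.857). The groups did not overlap, and the 1 mM pools stood at 84.3 to 88.2%. Site L3, at chromosome 15 position 5257797, was at 96.5%, 90.6%, 95.2% and 92.9% at 0.1 mM and between 97.8% and 98.9% in controls, with 85 to 134 reads per library. Site L7, at chromosome 23 position 36429720, was at 94.98% ± 2.91 at 0.1 mM (SD, n = 4), while its controls had 0 unmethylated of 156 reads, so that up to 1.92% unmethylated cannot be seen at this depth. The remaining methylated sites were L2, at chromosome 6 position 110288, with 99.2% ± 0.733 at 0.1 mM and 99.8% ± 0.129 in controls, and L8, at chromosome 19 position 40005051, with 97.9% ± 0.442 at 0.1 mM and 98.9% ± 0.459 in controls.

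At L4 and L6, the unmethylated sites of this side beside L1, 1 control held most of the methylated reads. Site L4, at chromosome 19 position 44640606, had 0 of 7611 reads methylated at 0.1 mM, which allows up to 0.0394%, and 1 of 1940, 1 of 1730, 6 of 1558 and 0 of 1981 in the controls. Site L6, at chromosome 8 position 26976240, was at 0.0589% ± 0.0338 at 0.1 mM, while control library 4 stood at 0.885% and the other controls at 0.0214 to 0.141%.

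**Figure D3:**
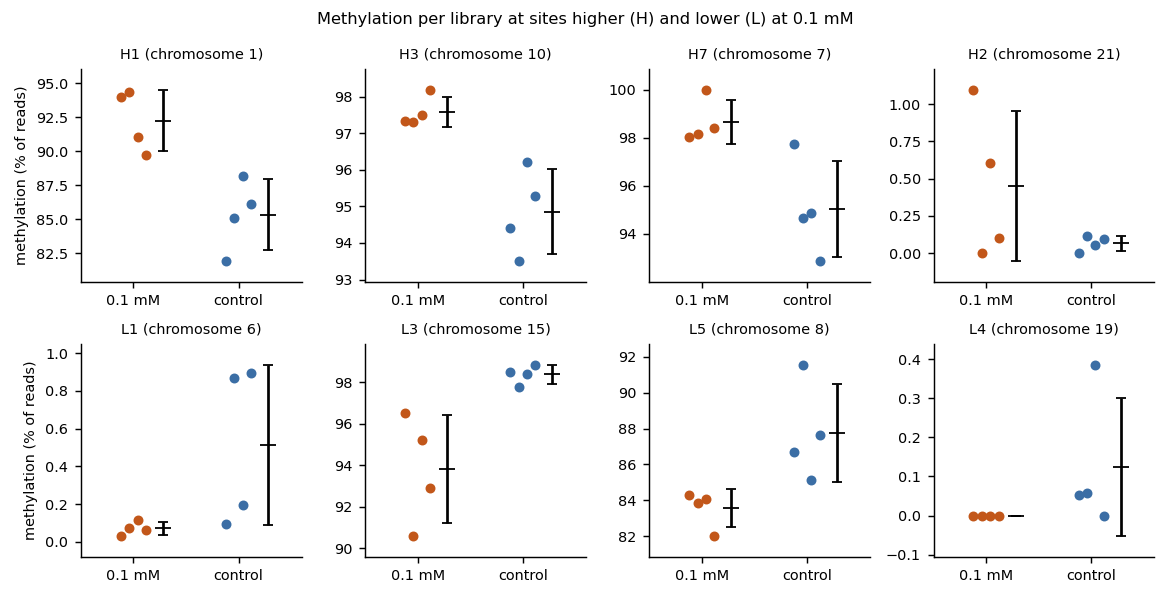
Methylation per library in percent of reads (vertical axes, each with its own range) at 4 sites higher and 4 sites lower at 0.1 mM, chosen for their small p. Points are libraries, with 0.1 mM on the left and control on the right, and bars are mean and SD (n = 4; an SD can reach past 0% where 1 library stands apart); the groups are apart at H1, H3, H7, L3 and L5 and overlap at H2, L1 and L4.

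The largest differences in points were at shallow sites. Group means were at least 10 points apart at 9 sites (0.386% of 2332), 7 higher and 2 lower at 0.1 mM, and the groups did not overlap at 1 of the 9. Their median depth was 46.5 reads per library, against 357.5 for all analysed sites. At chromosome 18 position 12131950 the 0.1 mM pools stood at 77.3%, 81.6%, 69.2% and 75.7% and the controls at 56.8%, 64.5%, 69.1% and 61.3%, with 31 to 52 reads per library (edgeR adjusted p = 0.972). That made 13.0 points, the widest gap of all, and the site where the groups did not overlap. The deepest of these sites, at chromosome 13 position 51224149 with 127 to 245 reads, was at 57.6% ± 10.3 at 0.1 mM and 70.4% ± 8.48 in controls (SD, n = 4; edgeR adjusted p = 0.890). Exposed library 3, at 42.3%, stood apart from the other exposed pools, at 61.1 to 64.4%. The other 8 of the 10 largest differences were between -12.7 and 12.9 points, with edgeR adjusted p = 0.972 at each. Among them, chromosome 24 position 37774162 was at 81.8% ± 2.08 at 0.1 mM and 91.4% ± 2.04 in controls, with all 4 exposed pools below the controls on 25 to 46 reads per library.

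Summing reads over neighbouring sites gave deeper units. Runs of 2 or more analysed sites with gaps of at most 1000 bp formed 693 stretches from 1468 sites, while 864 sites stood alone. Most stretches, 637, held 2 sites, 56 held more, and the median span was 240.0 bp. The median stretch had 1187.0 reads per library, against 487.5 for a site inside one. The median SD between replicates at 10 to 90% methylation was 1.88 points at 0.1 mM and 2.41 points in controls over 197 stretches, against 2.47 points at 0.1 mM and 2.95 points in controls over 397 sites within stretches. Stretches were taken by their summed level and sites by their own, so these sets do not hold the same sites.

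No stretch changed past the threshold at 0.1 mM. Of 690 stretches tested, 0 (0%) had an edgeR adjusted p under 0.05, and 27 (3.91%) had an unadjusted p under 0.05, 13 higher and 14 lower. The mean was higher at 0.1 mM in 337 stretches and lower in 353, the median absolute difference was 0.339 points, and no stretch differed by 10 points. At 549 of all 693 stretches (79.2%) the 95% interval from limma on log2 odds lay within 5 points of the control mean. This base takes in the stretches not tested. Among the 197 stretches at 10 to 90% the interval lay within 5 points at 71, and within 10 points at 172. The groups did not overlap at 20 of the 690 stretches tested (2.9%), 7 higher and 13 lower.

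The 10 stretches with the smallest p on either side did not pass (edgeR adjusted p = 0.459 to 0.984). Stretch SL3, at chromosome 8 from 21167269 to 21167699, was at 82.8%, 81.7%, 84.0% and 81.3% in the 0.1 mM pools and at 86.0%, 89.3%, 85.7% and 87.2% in the controls (edgeR adjusted p = 0.758). Its sites differed by -4.74 and -4.55 points, and the 1 mM pools ranged from 81.5 to 88.8%. Stretch SL1, at chromosome 8 from 43702310 to 43702575, holds L5 and was at 86.9% ± 0.847 at 0.1 mM and 90.2% ± 1.94 in controls (SD, n = 4). Its other site, at 90.2% ± 1.22 at 0.1 mM and 92.7% ± 1.21 in controls, differed by -2.46 points. Stretch SH4, 3 sites at chromosome 24 from 13609043 to 13609217, was at 93.4%, 92.1%, 92.6% and 93.1% at 0.1 mM and at 91.3%, 91.7%, 89.6% and 89.95% in controls, with its sites higher by 1.80, 0.802 and 2.99 points. Stretch SH2, at chromosome 10 from 18911379 to 18911707, was at 99.5% ± 0.0638 at 0.1 mM and 99.1% ± 0.194 in controls. Its sites were higher by 0.607 and 0.212 points. The groups did not overlap in any of these 4.

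Stretch SH1, at chromosome 21 from 2066143 to 2066752, had the smallest p of all stretches and stood at 0.548%, 0.0534%, 0.354% and 0.175% in the 0.1 mM pools and at 0.0245%, 0.0560%, 0.0259% and 0.0695% in the controls (edgeR adjusted p = 0.459). It holds H2 between a site at 0.215% ± 0.342 at 0.1 mM and 0% in every control and a site at 0.0581% ± 0.0737 at 0.1 mM and 0.0360% ± 0.0417 in controls. Methylated reads in the 0.1 mM pools numbered 25, 2, 14 and 7 over the stretch and 25, 0, 12 and 2 at H2. In exposed library 1, the highest, all of them were thus at H2 and none at the sites beside it. Without exposed library 2, the lowest of the exposed pools, the stretch was called (edgeR adjusted p = 0.0147). Leaving out any other single library gave no call, with an edgeR adjusted p of up to 0.993. Stretch SL2 holds L1 and its neighbour and was at 0.0832% ± 0.0349 at 0.1 mM and 0.291% ± 0.209 in controls. Stretch SL5, 3 sites at chromosome 6 from 110288 to 110759, holds L2 and was at 98.3% ± 0.234 at 0.1 mM and 98.8% ± 0.102 in controls. Its middle site differed by 0.00672 points and the outer ones by -0.622 (L2) and -1.37 points. In the remaining 3, SH3 was at 98.8% ± 0.880 at 0.1 mM and 95.6% ± 2.50 in controls (sites higher by 2.25 and 3.63 points), SH5 at 99.7% ± 0.161 at 0.1 mM and 99.4% ± 0.0566 in controls, and SL4 at 0.00565% ± 0.0113 at 0.1 mM and 0.0829% ± 0.0792 in controls. SH3 holds H7 and SL4 holds L4, so part of their reads was already counted at those sites. In SL4 exposed library 1 had 1 of 4425 reads methylated, and control libraries 4 and 1 had 1 of 3962 and 1 of 3870.

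**Figure D4:**
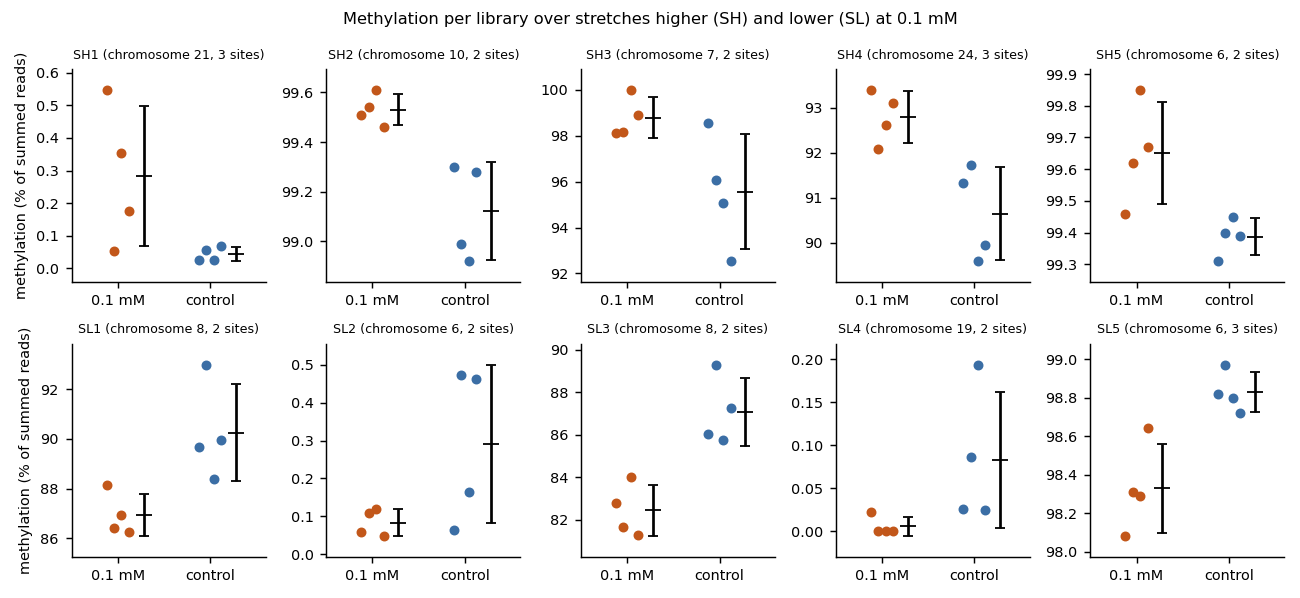
Methylation per library in percent of summed reads (vertical axes, each with its own range) over the 5 higher and 5 lower stretches with the smallest p. Points are libraries, with 0.1 mM on the left and control on the right, and bars are mean and SD (n = 4). The groups are apart in SH2, SH4, SH5, SL1, SL3, SL4 and SL5 and none of the 10 passed the test. In SL4 the highest exposed pool and the lowest control had 1 methylated read each.

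Longer runs of sites were also compared. Of the 6 stretches with 5 or more sites, the longest was 10 sites over 4495 bp at chromosome 6 from 25983513 to 25988007, at 93.1% ± 0.231 at 0.1 mM and 92.5% ± 0.975 in controls (SD, n = 4). On chromosome 4, 9 sites from 61296643 to 61299689 with a median of 45246.0 reads per library were at 63.7% ± 2.93 at 0.1 mM and 64.0% ± 1.11 in controls. The 5 sites beside them, from 61293852 to 61295454, were at 45.7% ± 2.40 at 0.1 mM and 45.6% ± 0.956 in controls. On chromosome 19, 5 unmethylated sites from 30798577 to 30799623 were at 0.0437% ± 0.0250 at 0.1 mM and 0.0376% ± 0.0146 in controls. The other 2 differed by 0.372 points, at chromosome 11 from 21291561 to 21292675, and by 1.39 points, at chromosome 15 from 7220266 to 7220898. In all 6 the groups overlapped.

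Differences of at least 5 points were found at 5 stretches, 2 higher and 3 lower at 0.1 mM. At chromosome 18 from 14415201 to 14415436 the exposed pools were at 20.6% ± 2.99 and the controls at 27.4% ± 4.30, without overlap (SD, n = 4; edgeR adjusted p = 0.984), and its sites differed by -6.25 and -5.95 points. The first site, the less methylated, took 56.0% ± 5.38 of the reads of the stretch at 0.1 mM and 51.45% ± 3.30 in controls. The summed difference therefore takes in this split of reads as well. At chromosome 17 from 26153980 to 26154016 the mean was 28.1% ± 2.95 at 0.1 mM and 37.8% ± 11.3 in controls, with overlap. Its 2 sites are of unlike level and differed by -1.37 and 1.16 points: the first was at 96.6% ± 2.60 at 0.1 mM and 98.0% ± 2.36 in controls, and the second at 7.67% ± 4.14 at 0.1 mM and 6.52% ± 1.63 in controls. The first took 22.9% ± 1.39 of the reads of the stretch at 0.1 mM and 34.1% ± 13.7 in controls, and a summed level depends on that split as well as on the level of each site. The other 3 overlapped as well, with differences of 5.33, 5.22 and -5.20 points.

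Differences at neighbouring sites were compared with each other. Over the 130 pairs of adjacent analysed sites that were both at 10 to 90%, Pearson's r between the 2 differences was 0.526 and Spearman's rho 0.495, and 67.7% of pairs had the same sign. Deviations of single libraries from their own group mean gave r = 0.541 over 1040 values in these pairs. Over all 775 adjacent pairs r was 0.199 between differences and 0.244 between deviations. The sites of a pair share libraries and, where they end one fragment, may share molecules, and these values are a description across sites, which are not independent replicates.

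**Figure D5:**
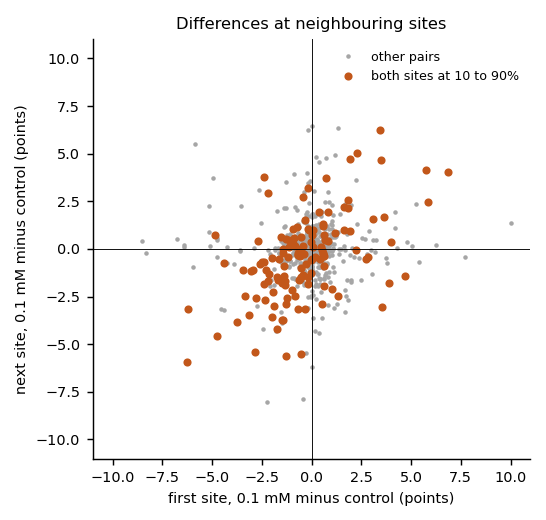
Difference between 0.1 mM and control in points at the first site (horizontal axis) and at the next site (vertical axis) of 775 pairs of analysed sites at most 1000 bp apart. The 130 pairs with both sites at 10 to 90% (large points) spread along the rising diagonal, with r = 0.526.

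No chromosome stood apart. Mean methylation of the 63 to 132 sites of a chromosome was higher at 0.1 mM on 13 chromosomes and lower on 12, and limma on these means called 0 of 25 (0%), with 0 at an unadjusted p under 0.05 and adjusted p = 0.976 throughout. The groups overlapped on every chromosome. The widest differences were 0.469 points on chromosome 16, with 82.5% ± 0.435 at 0.1 mM and 82.0% ± 0.568 in controls, and 0.423 points on chromosome 22, with 83.7% ± 0.286 at 0.1 mM and 83.3% ± 0.463 in controls. On the lower side they were -0.402 points on chromosome 12 and -0.392 points on chromosome 21, and both of these turned positive, to 0.259 and 0.332 points, when levels were weighted by reads. The 95% intervals of all 25 differences lay between -0.980 and 1.05 points. They all have the same width, since limma gave every chromosome the same variance. The SDs themselves differed, at 0.754 points at 0.1 mM and 0.752 in controls on chromosome 18. On chromosome 20 they were 0.149 points at 0.1 mM and 0.188 in controls. For a chromosome as variable as 18 the interval is therefore too narrow.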

How the data were processed

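Reads per site were taken from the deposited library files, whose read columns are handled under expected counts, since in the deposited columns a correction factor that is not whole follows the sites; values at sites were whole and needed no rounding, and standards and the factor were dropped. The authors' raw and adjusted levels are in percent, per the file headers: the raw one matched, within 0.005 points, the methylated share after adding 0.5 to both read types, and the adjusted one that share with methylated reads multiplied by the factor (1.20 to 1.29 at 0.1 mM, 1.22 to 1.29 in controls) within 0.0145 points. The factor came from the spiked standards, per the series' design text. Levels here are unadjusted shares, which lie below the adjusted ones at intermediate levels. Positions refer to danRer7, as the submitters' processing notes name it; the aligner is not given in the sources used here. A table of the whole series was not used here; 0 columns were without a sample.

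Methylated and unmethylated reads were tested with edgeR 4.0.16 in R 4.3.3 (a coverage term per library, a group term on methylated reads, common dispersion, quasi-likelihood F test) on the 8 libraries, for sites and for summed stretches, with Benjamini-Hochberg adjustment over all units tested and a threshold of 0.05. limma 3.58.1 (log2 odds, pseudocount 1) gave intervals and an alternative. Means were compared over 70 splits, with intervals from inverting that test (Python 3.11.15, numpy 2.4.6, pandas 2.3.3, scipy 1.17.1). The scripts were tested on simulated data in which every site had the same overdispersion. That test therefore does not cover sites where a single library stands apart. Sites named are those called, the 8 higher and 8 lower with the smallest p and the 10 with the largest difference; stretches, the 5 higher and 5 lower with the smallest p; chromosomes, the 2 widest differences each way. Stretches with 5 or more sites or at least 5 points, and sites called under other settings, were chosen after their values were seen. The comparison, its lists and its tests, the fit on 8 libraries included, were chosen with earlier results of these data known, and an earlier fit of all 12 libraries was known to call no site. Read counts of the 12 library pairs within groups differed beyond sampling noise (lowest chi-square 7.86 for each degree of freedom), so none was counted as a duplicate.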

Additional observations from a re-analysis of the deposited data

Results flagged for a closer look

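Of 98 sets of 4 libraries checked for a value far from the remaining 3, 14 held one. Chance alone gives about 1 in 20 (4.9 of 98) where sets are unselected; most of these sites were chosen for a small p or a large difference. In mean levels it was a control each time: control library 2 at 80.7% over all sites (others 80.1 to 80.2%), at 84.5% over sites of 70 to 90% (others 82.3 to 82.5%) and at 82.9% on chromosome 16 (others 81.7 to 81.8%).

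At partly methylated sites it was an exposed pool: library 3 at 42.3% on chromosome 13 position 51224149, library 4 at 59.2% on chromosome 20 position 31858947 (others 44.9 to 47.3%) and library 2 at 45.3% on chromosome 22 position 41198839 (others 62.9 to 64.6%). At unmethylated sites exposed library 2 was at 1.81% at H4 and at 1.39% on chromosome 2 position 29429149 (others 0 to 0.128%), exposed library 3 was at 1.41% on chromosome 4 position 11070915 (others 0 to 0.0436%), and exposed library 1 was at 0.0226% in stretch SL4 (others 0%). Among controls, library 3 was at 0.385% at L4 (others 0 to 0.0578%), library 4 at 0.885% at L6, and library 2 at 2.08% on chromosome 19 position 5296207 (others 0 to 0.0360%) and at 1.08% in the stretch of that site (others 0.0318 to 0.0359%).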

How the results depend on the processing

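The 2 site calls became 0 with all 12 libraries, 0 with limma on log2 odds, 0 with limma on adjusted levels, 1 (H1) with a minimum of 50 reads, 4 with a minimum of 10 reads (H1, L1, H2 and H4) and 1 to 3 when single libraries were left out (L1 lost as given above, H2 gained without exposed library 2). The 0 stretches called became 1 when all listed sites were summed (chromosome 1 from 1292853 to 1293086, which holds H1, at 92.3% at 0.1 mM and 85.4% in controls, edgeR adjusted p = 0.01004) and 0 to 1 without single libraries (SH1 without exposed library 2). H1 had no analysed site within 1000 bp. Its nearest listed site held 7 reads over the 0.1 mM libraries and 10 over the controls, against 6500 and 6269 at H1. The call of that run therefore rests mainly on the reads of H1. Same-numbered pools are not stated to share a spawn or day, and their deviations correlated at -0.0664 to 0.0408, with 1 of 4 exposed pools correlating best with the control of its number; with the replicate block 7 sites and 3 stretches were called, the 4 sites above, those of chromosome 2, 4 and 19 named for a library standing apart, and SH1, SL2 and the stretch of the chromosome 19 site.

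The difference of means over all sites turned to 0.114 points with read-weighted levels, 0.00862 with adjusted levels and 0.00753 with a minimum of 10 reads, that under 10% to -0.0136 with read-weighted levels and -0.00486 with a minimum of 10 reads, and that at 70 to 90% to 0.0257 with a minimum of 10 reads. Without single libraries the difference ranged from -0.130 to 0.138 points over all sites, -0.00188 to 0.0373 under 10%, -0.647 to 0.404 at 10 to 70%, -0.430 to 0.308 at 70 to 90% and -0.0148 to 0.0918 at 90% or more. The cause of these turns was not tested. In no setting did a mean pass. Under the replicate block none could, since 4 pairs allow no exact sign-flip p under 0.125. In the main comparison a single mean could not have passed alone after adjustment over the 5 means. Without single libraries the log2 odds ratio ranged from -2.58 to 0.0398 at L6 (turned without control library 4), from -3.21 to 2.49 on chromosome 19 position 5296207 and from -2.67 to 0.63 in its stretch (turned without control library 2), and from -0.86 to 3.62 on chromosome 4 position 11070915 (turned without exposed library 3). On chromosomes 12 and 21 read-weighted differences turned to 0.259 and 0.332 points. Depth was a median of 46.5 reads per library at the 9 sites at least 10 points apart, against 357.5 over all sites.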

Other observations

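Unmethylated sites showed rises in single libraries that the next site did not share. The definition was chosen after the values were seen: at least 1% and at least 10 methylated reads in 1 library, at a site whose median over the 8 libraries was under 0.5%. Among 206 such sites, 8 single-library values met it, 6 in 0.1 mM libraries and 2 in controls. They had 18 to 50 methylated reads each and levels of 1.06 to 2.08%. Exposed library 2 held 3 of them, exposed library 1 held 2, exposed library 3 held 1, and control libraries 2 and 4 held 1 each. The split between groups depends on the 1% bound. Just under it lay control libraries 2 and 4 at L1 (0.866% and 0.893%) and control library 4 at L6 (0.885%). Values under the bound were not counted for either group. The unadjusted edgeR p was under 0.05 at 7 of the 8 sites that met the definition. These sites were chosen by the same counts that gave the p, so this share is not a separate result. The nearest analysed site, within 1000 bp in all 8 cases and with at least 1097 reads, was at 0 to 0.218% in the same library. At chromosome 9 position 2591415, for example, exposed library 1 was at 1.90% (21 of 1106 reads), the other 7 libraries reached at most 0.295%, and the site 414 bp away was at 0.0912% in library 1. A second library was raised at 2 of the 8 sites: exposed library 3 at 0.605% beside exposed library 1 at 1.10% on chromosome 21 position 2066571, and control library 2 at 0.732% beside exposed library 2 at 1.06% on chromosome 14 position 2318056. At chromosome 4 position 11070915 exposed library 3 was at 1.41% (38 of 2704 reads), and library 3 of the 1 mM pools was at 1.32% (30 of 2274 reads), against 0 to 0.142% in the other 10 libraries. The source of these reads was not tested.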
